A study of Mus musculus with 12 samples.

Results

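Srgn, Glipr1, Foxq1, Nostrin, Bmper, Tns4, Stra6 and Hkdc1 are 8 of the 20529 genes listed for mouse embryonic stem cells with and without the RNA-binding protein Trim71. They were chosen by measured values, the large falls of their counts and RPKM in the Trim71-/- libraries, so their difference between Trim71-/- and control cells is described here and is not a finding. All 8 passed the filter on low counts, which kept 20486 genes, and they passed it through the control cells, where they were higher. Their difference between Tnrc6a and Cas9 within a genotype rests on the same libraries, and a high Tnrc6a control library favours both a large fall and a large difference from Cas9. That difference is therefore also described with its standard error and with no test.

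Trim71 binds messenger RNAs through its NHL domain and lowers their output, and it is known in embryonic stem cells and early embryos as a heterochronic factor. Tnrc6a, also called GW182, is the scaffold that Argonaute proteins use to bring deadenylation enzymes to microRNA targets. None of these genes is a classical stem cell gene. They code for a proteoglycan core, secreted or membrane proteins, adaptors, an enzyme and a transcription factor, and several are best known from endothelium, epithelia or extraembryonic tissues. Stem cell cultures with serum also hold cells that turn on genes of the extraembryonic endoderm, the lineage that forms the yolk sac.

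The study sequenced total RNA of stem cells of strain 129S6/SvEvTac grown on gelatin with serum and LIF, the cytokine that maintains self-renewal, in triplicate wells. By the titles and the overexpression tag there were 4 groups of 3 libraries: control cells with Cas9, Trim71-/- cells with Cas9, control cells with Tnrc6a, and Trim71-/- cells with Tnrc6a. Per the growth protocol every group came from cells with the reporter GFP_5xT71BS and a stable Cas9 construct with a FLAG tag and blasticidin resistance, so the controls carry these too. The labels do not say how many clones the Trim71-/- or Tnrc6a cells stand for, so genotype and clone cannot be told apart, and p-values measure the spread between wells. The input lines of 9 libraries name other cells than their titles (HA-AVI-Tnrc6a in all 9, with Ago2-/- in the Tnrc6a control and Upf1-/- in the Tnrc6a Trim71-/- libraries), and the titles were followed.

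Libraries held 20758151 to 31552915 gene counts. Tnrc6a RNA stood at 3317 ± 120 CPM (counts relative to library size, scaled by trimmed mean of M values; SD, n = 3) in control and 3622 ± 126 in Trim71-/- cells with the Tnrc6a construct, against 132.2 ± 1.31 and 144.5 ± 9.79 with Cas9. Trim71 RNA was present in all groups, at 306.1 ± 14.2 CPM in Cas9 control and 275.2 ± 14.2 CPM in Cas9 Trim71-/- cells, and at 264.2 ± 11.9 and 240.4 ± 9.13 CPM with Tnrc6a. The labels do not give the edit, and a count over the gene does not read a small one, so these values do not check the genotype. The 11 stem cell markers (Pou5f1, Nanog, Sox2 and others) were all at 1 CPM or more in every group.

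Together the 8 genes took few reads, more with Tnrc6a and far fewer in Trim71-/- cells. Their summed level was 20.6 to 25.1 CPM in the 3 Cas9 control libraries and 62.6 to 73.3 CPM in the 3 Tnrc6a control libraries. Without Trim71 the sum was 1.03 to 1.48 CPM with Cas9 and 2.52 to 3.09 CPM with Tnrc6a. The 4 groups did not overlap. In bulk RNA, fewer cells that express these genes and less RNA in each cell cannot be told apart.

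Srgn, serglycin, is the core protein of the proteoglycans packed into secretory granules of blood cells and endothelium. It lies on the minus strand of chromosome 10 at 62493833 to 62527451 in GRCm38 (ENSMUSG00000020077). In the Cas9 control libraries, replicates 1, 2 and 3, Srgn had 176, 176 and 201 counts, and in the Tnrc6a control libraries 568, 490 and 506. The Trim71-/- libraries had 4, 1 and 5 counts with Cas9 and 5, 7 and 5 with Tnrc6a. All 6 control libraries were far above all 6 Trim71-/- libraries, and the Tnrc6a controls lay above the Cas9 controls. Mean levels were 7.81 ± 1.07 CPM in Cas9 control, 18.1 ± 1.54 in Tnrc6a control, 0.135 ± 0.0946 in Cas9 Trim71-/- and 0.212 ± 0.0407 in Tnrc6a Trim71-/- cells (SD, n = 3 each). The Trim71-/- cells thus kept 1.71% of the control level with Cas9 (95% exact interval from the counts 0.817 to 3.17%) and 1.17% with Tnrc6a (0.682 to 1.89%). Such intervals cover counting error only. Srgn was 2.33-fold higher with Tnrc6a than with Cas9 in control cells (log2 1.22, SE 0.11). In Trim71-/- cells the log2 difference was 0.66 (95% interval -0.64 to 1.96), and the libraries overlapped.

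Srgn and Hkdc1 are near neighbours on the same strand, and both were among the genes that nearly vanish, so the sequence around their start sites is shown from RefSeq (GRCm38.p6), 5′ to 3′ on the minus strand, 250 bases before to 50 bases after the start site. The Srgn window is chr10:62527396-62527695 and the Hkdc1 window is chr10:62422408-62422707. Capitals mark the only match found in the members' windows to the motifs searched, which is a TATA box form.
Srgn: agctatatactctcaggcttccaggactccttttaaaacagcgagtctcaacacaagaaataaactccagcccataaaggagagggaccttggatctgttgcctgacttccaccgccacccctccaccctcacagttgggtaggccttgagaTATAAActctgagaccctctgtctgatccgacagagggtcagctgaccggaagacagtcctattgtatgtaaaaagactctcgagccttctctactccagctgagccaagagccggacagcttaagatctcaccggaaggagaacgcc
Hkdc1: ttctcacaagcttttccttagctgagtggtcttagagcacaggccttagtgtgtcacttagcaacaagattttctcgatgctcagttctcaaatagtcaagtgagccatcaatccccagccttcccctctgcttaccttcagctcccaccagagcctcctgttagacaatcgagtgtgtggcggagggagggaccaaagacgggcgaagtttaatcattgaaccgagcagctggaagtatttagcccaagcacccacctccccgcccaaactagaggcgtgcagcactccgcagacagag
The motifs were AGATAA and TGATAA for GATA factors, CATTGT for SOX factors, TATAAA for the TATA box and AGGTCA for a retinoid receptor element, on both strands. The TATAAA of Srgn starts 98 bases before the start site. That motif is in 13.6% of the 32544 windows of this length in the RefSeq table, and the GATA forms are in 18.5%, CATTGT in 12.4% and AGGTCA in 16.2%. RefSeq windows were found for 5 of the 8 genes (Srgn, Nostrin, Bmper, Stra6 and Hkdc1). Base composition differed among them, with 51% G and C for Srgn, 51% for Nostrin, 52.3% for Hkdc1 and 55.7% for Stra6, near the median of 53% over all windows. The Bmper window had 72.7% G and C and 31 CpG pairs, against a median of 7 CpG pairs, so the 5 windows share neither composition nor a searched motif. The window used for Stra6 lies 65300 bases from the gene start in GENCODE.

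Bmper is a secreted protein that binds BMP ligands and tunes their signalling, known from vessel and lung development. Its gene is on the plus strand of chromosome 9 at 23223076 to 23485200 (ENSMUSG00000031963). The Cas9 control libraries had 52, 52 and 62 counts and the Tnrc6a control libraries 208, 171 and 178. The Trim71-/- libraries gave 8, 2 and 4 counts with Cas9 and 7, 18 and 12 with Tnrc6a. Control and Trim71-/- libraries did not overlap, while the Trim71-/- libraries with and without Tnrc6a did. Bmper stood at 2.34 ± 0.320 CPM in Cas9 control and 6.43 ± 0.709 CPM in Tnrc6a control cells, and Trim71-/- cells kept 7.99% (interval 4.27 to 13.8%) and 7.18% (5.00 to 10.02%) of these. With Tnrc6a it was 2.76-fold higher than with Cas9 in control cells (log2 1.47, SE 0.18) and 2.46-fold higher in Trim71-/- cells (log2 1.30, SE 0.45). The second value was 0.93 on the log2 scale without Tnrc6a Trim71-/- replicate 2, which held 18 of the 37 counts of its group.

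Glipr1 belongs to the CAP superfamily of cysteine-rich secretory proteins and was described in glioma cells. It lies on the minus strand of chromosome 10 at 111985448 to 112002631 (ENSMUSG00000056888), and its exons overlap those of Krr1 on the other strand, where reads of both cannot be told apart if strand was not used in counting, which the labels do not state. Krr1 stood at 146.8 CPM in Cas9 control, 165.0 in Cas9 Trim71-/-, 131.1 in Tnrc6a control and 153.2 in Tnrc6a Trim71-/- cells. This order of the groups is opposite to that of Glipr1. Glipr1 had 29, 21 and 24 counts with Cas9 and 135, 115 and 115 with Tnrc6a in control cells. The Trim71-/- cells gave 0, 2 and 0 counts with Cas9 and 3, 4 and 3 with Tnrc6a. Glipr1 was the only one of the 8 genes with no count in more than 1 library. Its level was 1.03 ± 0.0963 CPM in Cas9 control and 4.21 ± 0.446 CPM in Tnrc6a control cells. On 2 counts, the Cas9 Trim71-/- group had 2.56% of its control (interval 0.304 to 9.58%), and the Tnrc6a Trim71-/- group had 2.96% of its own (1.41 to 5.51%). Glipr1 was 4.06-fold higher with Tnrc6a than with Cas9 in control cells (log2 2.02, SE 0.23). The ratio in Trim71-/- cells was 472% of the Cas9 level, with a counting interval of 100.5 to 4426%. The fitted log2 difference in those cells was 2.05, with an interval of -0.01 to 4.11 from its standard error, which included 0. Both Cas9 counts came from Trim71-/- replicate 2, and without it that group held no count. The fitted log2 genotype difference with Cas9 was -5.06, and -4.42 without Trim71-/- replicate 1.

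Stra6 is the membrane receptor that takes retinol from its binding protein into cells, and its name records that retinoic acid induces it. The gene is on the plus strand of chromosome 9 at 58063788 to 58153996 (ENSMUSG00000032327). Control cells had 17, 27 and 25 counts with Cas9 and 89, 73 and 78 with Tnrc6a. Trim71-/- cells had 7, 5 and 3 counts with Cas9 and 5, 7 and 6 with Tnrc6a. Among the 8 genes, Stra6 kept the largest share with Cas9, 20.6% of 0.995 ± 0.357 CPM (interval 10.9 to 36.3%). With Tnrc6a it kept 8.10% (4.72 to 13.1%) of 2.77 ± 0.284 CPM. Stra6 was 2.84-fold higher with Tnrc6a than with Cas9 in control cells (log2 1.50, SE 0.25). In Trim71-/- cells the log2 difference was 0.18 (95% interval -1.02 to 1.38), and the libraries overlapped.

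Nostrin is an F-BAR adaptor that brings endothelial nitric oxide synthase to internal membranes. Its gene is on the plus strand of chromosome 2 at 69135800 to 69189330 (ENSMUSG00000034738). In control cells Nostrin had 34, 11 and 34 counts with Cas9 and 133, 98 and 104 with Tnrc6a. Counts in Trim71-/- cells were 2, 2 and 7 with Cas9 and 2, 2 and 3 with Tnrc6a. Cas9 control replicate 2 was low and Cas9 Trim71-/- replicate 3 was high for this gene. Nostrin kept 13.2% (interval 6.33 to 24.9%) of 1.06 ± 0.435 CPM with Cas9 and 2.26% (0.901 to 4.70%) of 3.87 ± 0.659 CPM with Tnrc6a. Without Cas9 Trim71-/- replicate 3, the log2 difference with Cas9 was -3.80 in place of -2.86. Control cells with Tnrc6a had 3.54-fold more Nostrin than those with Cas9 (log2 1.82, SE 0.25). It was the only one of the 8 whose fitted value was below 0 in Trim71-/- cells, at log2 -0.71 (95% interval -2.41 to 0.99), and without Cas9 Trim71-/- replicate 3 that value was 0.22.

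Tns4 is a short tensin of epithelial cells that binds integrin tails and links them to signalling proteins. It lies on the minus strand of chromosome 11 at 99065678 to 99089306 (ENSMUSG00000017607). Tns4 had 12, 20 and 17 counts with Cas9 and 167, 152 and 145 with Tnrc6a in control cells, and 2, 3 and 3 with Cas9 and 14, 8 and 14 with Tnrc6a in Trim71-/- cells. The Tnrc6a libraries were above the Cas9 libraries in both genotypes. Trim71-/- cells kept 15.5% (interval 6.32 to 32.9%) of 0.710 ± 0.279 CPM with Cas9 and 8.38% (5.80 to 11.8%) of 5.36 ± 0.508 CPM with Tnrc6a. Of the 8 genes it had the highest fold difference between Tnrc6a and Cas9 in control cells, 7.74-fold (log2 2.95, SE 0.24). In Trim71-/- cells the difference was 4.10-fold (log2 2.04, SE 0.51).

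Hkdc1 holds hexokinase domains, and hexokinases phosphorylate glucose on its entry into the cell. Its gene is on the minus strand of chromosome 10 at 62383137 to 62422491 (ENSMUSG00000020080). Hkdc1 had 20, 4 and 21 counts with Cas9 and 133, 78 and 107 with Tnrc6a in control cells, and 2, 0 and 1 with Cas9 and 9, 5 and 5 with Tnrc6a in Trim71-/- cells. As for Nostrin, Cas9 control replicate 2 was low. On 3 counts, the Cas9 Trim71-/- group had 6.31% (interval 1.26 to 19.7%) of 0.594 ± 0.340 CPM, and the Tnrc6a Trim71-/- group had 6.46% (3.84 to 10.3%) of 3.66 ± 0.916 CPM. Without Cas9 Trim71-/- replicate 1 the fitted log2 genotype difference with Cas9 was -4.55 in place of -3.82. Hkdc1 was 5.86-fold higher with Tnrc6a than with Cas9 in control cells (log2 2.55, SE 0.29). With Tnrc6a the Trim71-/- cells stood at 597% of the Cas9 level, with a counting interval of 176 to 3152%. That fitted log2 value was 3.18 without the same replicate, in place of 2.44.

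Foxq1 is a forkhead transcription factor of epithelia and hair follicles. It is on the plus strand of chromosome 13 at 31556134 to 31560976 (ENSMUSG00000038415), and its exon overlaps A530084C06Rik on the other strand. That gene is not in the deposited table. If strand was not used in counting, its reads cannot be told apart from those of Foxq1 where they overlap. Foxq1 had 197, 185 and 188 counts with Cas9 and 675, 624 and 653 with Tnrc6a in control cells, and 17, 10 and 9 with Cas9 and 29, 33 and 16 with Tnrc6a in Trim71-/- cells. Summed over a group it had the most counts of the 8 genes in each of the 4, and its 4 groups of libraries followed the order of the summed level. Trim71-/- cells kept 5.98% (interval 4.15 to 8.38%) of 8.06 ± 1.13 CPM with Cas9 and 4.32% (3.40 to 5.42%) of 22.5 ± 0.915 CPM with Tnrc6a. With Tnrc6a, Foxq1 was 2.81-fold higher than with Cas9 in control cells (log2 1.49, SE 0.10) and 2.03-fold higher in Trim71-/- cells (log2 1.02, SE 0.30).

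**Figure D1:**
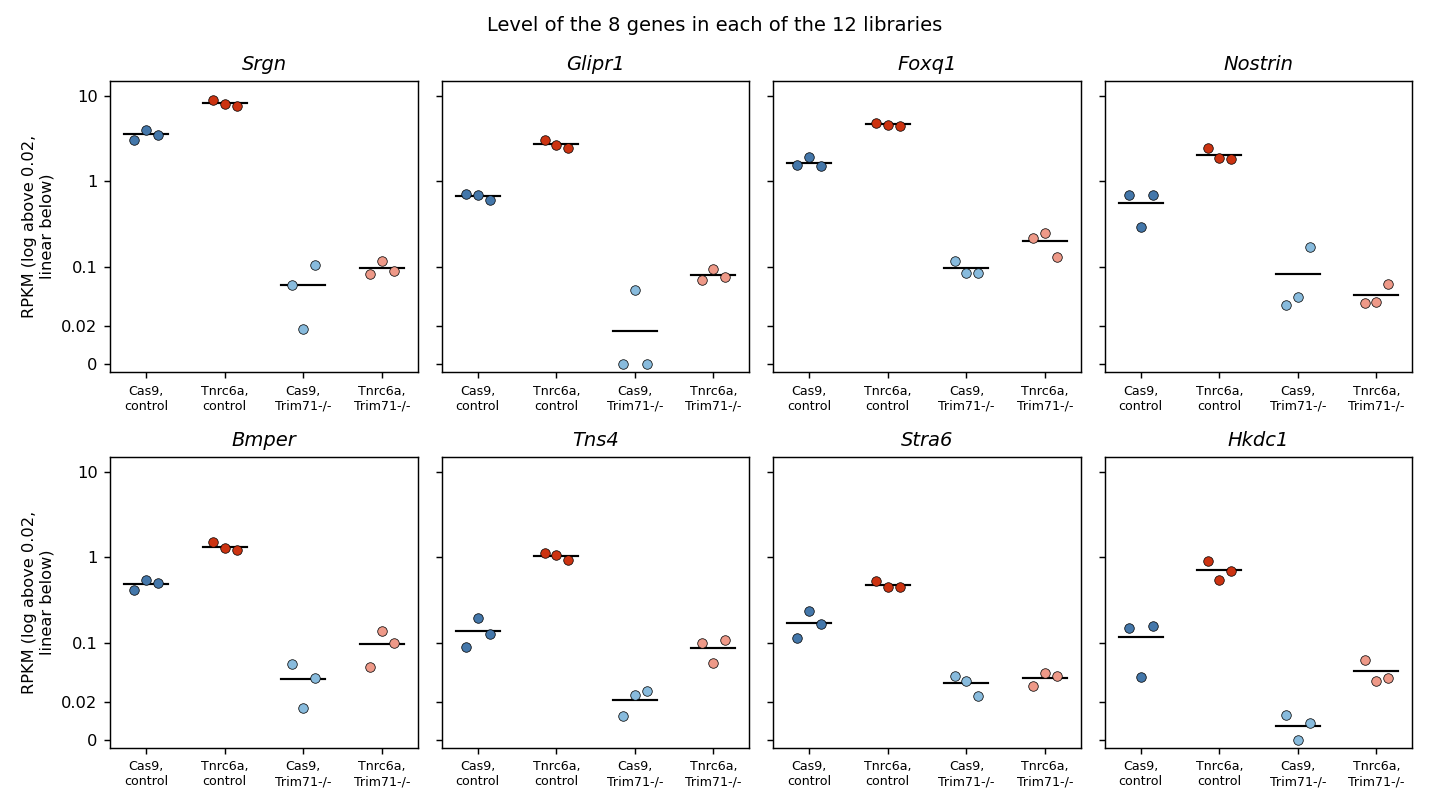
Deposited level (RPKM, on an axis that is log above 0.02 and linear below it) of each of the 8 genes in the 12 libraries, by group. Points are libraries and bars are means of 3. In each panel the Tnrc6a control libraries are highest and the Trim71-/- libraries lie below the control libraries of the same construct.

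Levels between genes can be compared per gene length, as the deposited RPKM (reads per kilobase of gene length, scaled to library size). In Tnrc6a control cells the order of mean RPKM was Srgn (8.22 ± 0.699), Foxq1 (4.65 ± 0.189), Glipr1 (2.73 ± 0.289), Nostrin (2.05 ± 0.349), Bmper (1.33 ± 0.147), Tns4 (1.04 ± 0.0982), Hkdc1 (0.713 ± 0.178) and Stra6 (0.475 ± 0.0487). The libraries of neighbours in that order did not overlap, although Glipr1 and Nostrin came close, at a lowest 2.47 and a highest 2.45 RPKM. In Cas9 control cells Srgn (3.55 ± 0.489 RPKM) and Foxq1 (1.66 ± 0.234 RPKM) were again first. Below them Glipr1 (0.670 ± 0.0624 RPKM) overlapped with Nostrin (0.560 ± 0.230 RPKM), and Nostrin with Bmper (0.484 ± 0.0663 RPKM). Stra6 (0.171 ± 0.0613 RPKM), Tns4 (0.137 ± 0.0540 RPKM) and Hkdc1 (0.116 ± 0.0661 RPKM) did not differ beyond their spread. The plot of RPKM by library shows how low the Trim71-/- libraries were for all 8, and the highest single value among them was 0.251 RPKM, for Foxq1.

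The label "nearly silenced" holds to different degrees. Of the 20486 genes tested, 22.6% were lower in every Cas9 Trim71-/- library than in every Cas9 control library, and 23.9% were with Tnrc6a. All 8 genes were among these in both, which the choice of members fixes. The 2 comparisons share no library. With Tnrc6a the 8 genes kept 1.17 to 8.38% of the control level, and 19 genes fell further than Tns4, the member that fell least. With Cas9 they kept 1.71 to 20.6%, and 240 genes fell further than Stra6. A larger share did not mean a higher remaining level: with Cas9, Tns4 kept 15.5% but stood at 0.110 ± 0.0377 CPM, while Foxq1 kept 5.98% and stood at 0.466 ± 0.0900 CPM. The members that fell least with Tnrc6a were Tns4 and Stra6 (log2 -3.56 and -3.60). Of the 20 largest falls with Tnrc6a, 12 were of other genes, among them Habp2, Tfec, Cubn, Clic5, Cxcl12 and Foxf2.

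With overexpressed Tnrc6a the 8 genes stood 2.33- to 7.74-fold higher than with Cas9 in control cells, and in each case every Tnrc6a library lay above every Cas9 library, as for 32.6% of all genes tested. The median log2 difference was 1.66 over the 8 genes and -0.02 over all genes tested. All 8 are among the 20 largest falls with Tnrc6a, so a high Tnrc6a control level was part of how they were chosen, and nothing is read from their count here.

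The differences between Tnrc6a and Cas9 were less even in Trim71-/- cells. For Foxq1, Tns4, Hkdc1 and Glipr1 every Tnrc6a library lay above every Cas9 library, as for 33.3% of all genes tested, and for Srgn, Bmper, Stra6 and Nostrin the libraries overlapped. The median log2 difference of the 8 was 1.16, against 0.02 over all genes tested. The counts behind it are few: of the 8 genes, only Foxq1 would pass the filter in the Trim71-/- libraries alone.

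**Figure D2:**
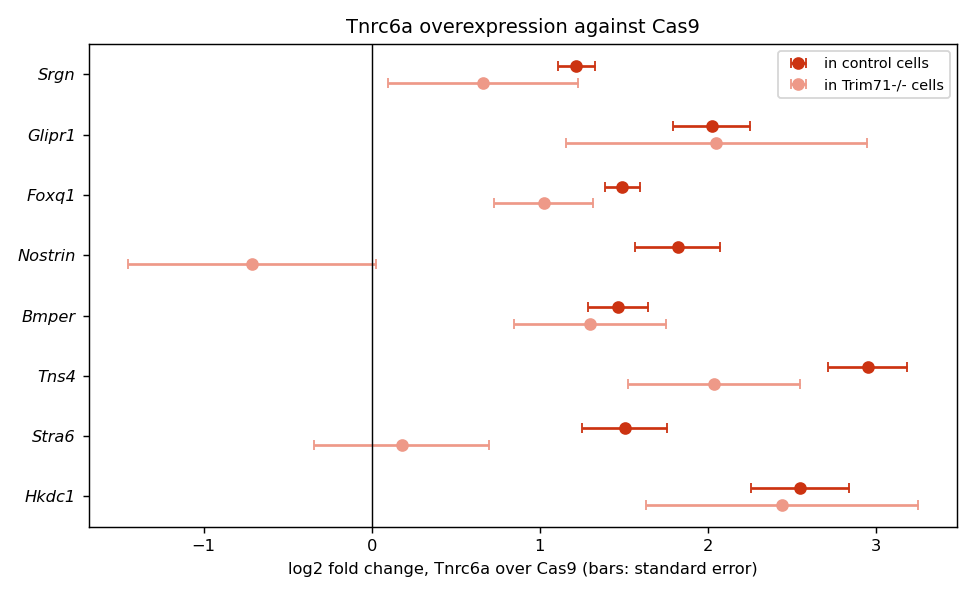
Log2 fold change of each of the 8 genes, Tnrc6a over Cas9, in control cells (dark) and in Trim71-/- cells (light), with bars for the standard error. All 8 dark points lie right of 1.2, and the light points run from -0.71 (Nostrin) to 2.44 (Hkdc1) with longer bars.

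The plot of Tnrc6a fold changes sets both genotypes side by side. The log2 difference in Trim71-/- cells minus that in control cells was -2.54 for Nostrin, -1.33 for Stra6, -0.92 for Tns4, -0.56 for Srgn and -0.47 for Foxq1. It was -0.17 for Bmper, -0.11 for Hkdc1 and 0.03 for Glipr1. The fitted value was smaller in Trim71-/- cells for 7 of the 8, but this difference equals the difference of the genotype contrasts that chose the genes and was not tested.

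The level in Trim71-/- cells with Tnrc6a can also be set beside the Cas9 control level. Srgn stood at 2.75% of its Cas9 control level, Nostrin at 7.91%, Glipr1 at 12.1%, Foxq1 at 12.2%, Bmper at 19.9% and Stra6 at 23.3%. Each of these lay below the Cas9 control libraries without overlap. Hkdc1, at 37.7%, and Tns4, at 65.6%, did overlap with them. The 8 genes were chosen for low values in Trim71-/- libraries, which favours such gaps. The share of all genes with such a gap was not computed, so nothing is read from their number.

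The 8 genes moved alike over the libraries. Pearson's r between members, on log2(CPM + 0.5) over the 12 libraries, ran from 0.842 to 0.990 over 28 pairs, with a median of 0.949. The points share their libraries and the group differences that chose the genes, so this is a description only. Among 13492 other genes of at least 1 CPM, the most alike to the mean of the 8 was Lamb1 (r = 0.993 over 12 libraries), a laminin chain of basement membranes, then Lrpap1 (0.991), a chaperone of endocytic receptors, and Nxf7 (0.990), a nuclear export factor family gene. Tmem231 (0.986), a ciliary transition zone protein, Aqp8 (0.985), a water channel, and Lama1 (0.982), another laminin chain, followed. Both laminin genes are also in the list of endoderm matrix genes. That list was chosen with earlier results of these data known, so nothing is read from this overlap. The 6 genes differ in level and in the depth of the fall. Lamb1 had 112.5 CPM in Cas9 control, 39.3 in Cas9 Trim71-/-, 216.7 in Tnrc6a control and 46.0 in Tnrc6a Trim71-/- cells. Nxf7 had 3.02, 0.451, 12.2 and 1.13 CPM in the same order, which is near the members' range.

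**Figure D3:**
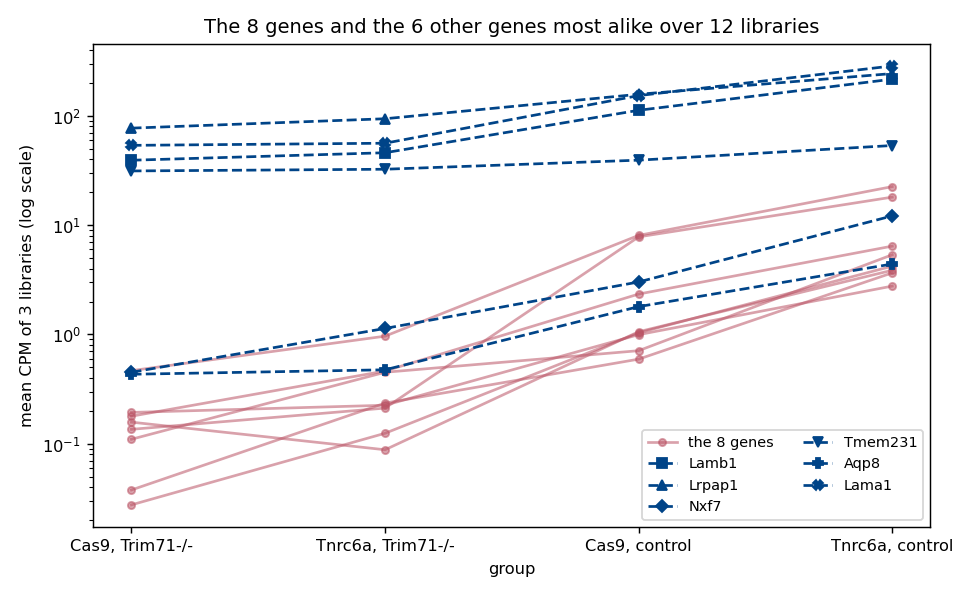
Mean CPM (log axis, 3 libraries per group) of the 8 genes (solid lines) and of the 6 other genes with the most similar profile (dashed lines) in the 4 groups. All 14 lines are highest in Tnrc6a control cells, and the laminin genes Lamb1 and Lama1 fall far less in Trim71-/- cells than the 8 genes do.

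Srgn and Hkdc1 lie 71341 bases apart with Supv3l1, a mitochondrial RNA helicase, and Vps26a, a retromer subunit, between them. Both fell slightly in Trim71-/- cells. Supv3l1 fell by 0.21 on the log2 scale with Cas9 (edgeR adjusted p = 0.00369) and by 0.30 with Tnrc6a (edgeR adjusted p = 3.20e-05), and Vps26a fell by 0.25 and by 0.19. Hk1, the ubiquitous hexokinase 3229 bases from Hkdc1, had log2 differences of 0.05 (edgeR adjusted p = 0.515) and -0.02 (edgeR adjusted p = 0.847). Kifbp, on the other side of Srgn, fell by 0.18 with either construct (edgeR adjusted p = 0.0275 with Cas9 and 0.0142 with Tnrc6a), and single libraries ended both calls (edgeR adjusted p up to 0.109 without Cas9 Trim71-/- replicate 3 and up to 0.135 without Tnrc6a Trim71-/- replicate 3). Of the 7 tested genes within 200 kb of Srgn other than Hkdc1, 6 fell and 0 rose with either construct, with a median log2 difference of -0.21 with Cas9 and -0.19 with Tnrc6a. The genes in between thus fell slightly, far less than Srgn and Hkdc1. Farther off, Stox1, 131592 bases from Srgn and named after its values were seen, had log2 differences of -1.59 with Cas9 and -0.51 with Tnrc6a.

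**Figure D4:**
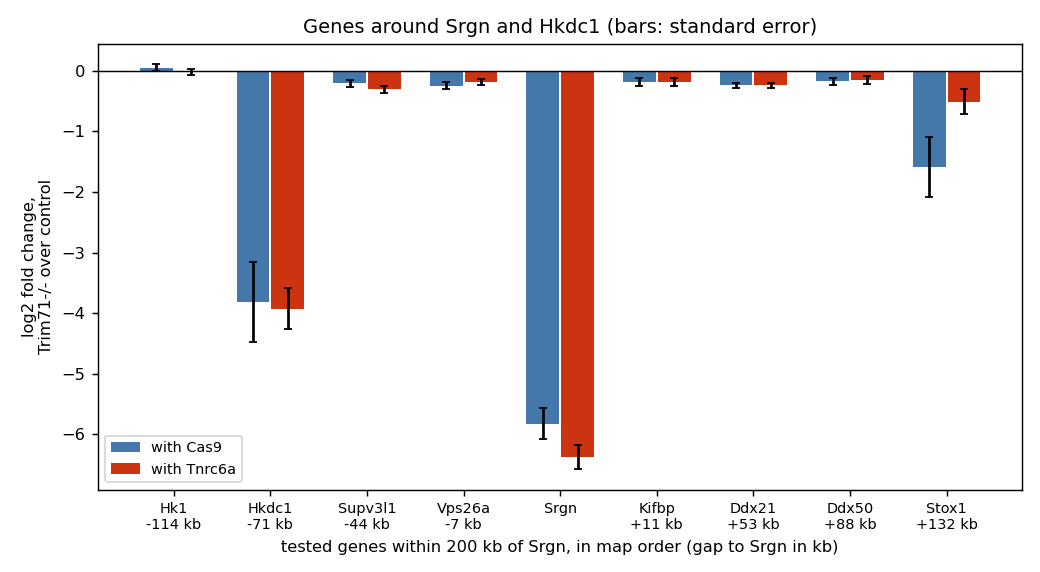
Log2 fold change, Trim71-/- over control, of the tested genes within 200 kb of Srgn in map order, with Cas9 (blue) and with Tnrc6a (red). Bars show the fitted value with its standard error. Srgn and Hkdc1 reach -3.8 or lower, while Hk1, Supv3l1, Vps26a and Kifbp lie between -0.30 and 0.05 and Stox1, at the right, is at -1.59 with Cas9.

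Foxq1 also has a neighbour that fell. Foxf2, a forkhead gene of mesenchyme 64840 bases away, fell by 1.49 on the log2 scale with Cas9 (SE 0.50, edgeR adjusted p = 0.0154) and by 4.07 with Tnrc6a (SE 0.43, edgeR adjusted p = 1.54e-10). Without Tnrc6a Trim71-/- replicate 1 the second value was -3.48. Foxf2 rose with Tnrc6a in control cells (log2 1.88, SE 0.33, edgeR adjusted p = 4.55e-06), from 0.524 to 1.96 CPM. Around the 8 genes there were 31 tested genes within 200 kb that are not members. With Cas9, 12 fell, 5 rose and 14 did not pass in Trim71-/- cells, against 19.1% of all genes tested that fell and 17.1% that rose. With Tnrc6a, 11 fell, 7 rose and 13 did not pass, against 19% and 20% of all genes tested. With either construct, 6 of those that fell were the genes around Srgn counted above, so 1 region gave about as many falls as all the others. The median log2 difference of the neighbours was -0.10 and -0.02. Igfbp4, beside Tns4, fell by 0.43 with Cas9 and by 0.56 with Tnrc6a, and Cers6, beside Nostrin, by 0.25 and by 0.18. Smarce1, on the other side of Tns4, rose by log2 0.22 and 0.26. Islr, beside Stra6, rose by log2 1.41 with Cas9 and had a difference of -0.34 with Tnrc6a (edgeR adjusted p = 0.607). The Cas9 call of Islr was lost in 6 of 12 alternatives. Spc25, Gm6808 and Cyp11a1 passed in neither. No tested gene lay within 200 kb of Bmper.

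Most listed genes of the extraembryonic endoderm also fell in Trim71-/- cells and rose with Tnrc6a in control cells. The lists were chosen with earlier results of these data known, so their counts are a description. Of all genes tested, 19.1% fell in Trim71-/- cells with Cas9 and 19% with Tnrc6a. Of 8 transcription factors and receptors of that lineage, 7 fell and 1, Hnf4a, rose with Cas9 in Trim71-/- cells, 7 fell with Tnrc6a, and 8 rose with Tnrc6a in control cells. Gata6, which drives primitive endoderm, went from 14.5 to 0.941 CPM with Cas9 (log2 -3.93, SE 0.14, edgeR adjusted p = 2.45e-25). It rose 2.43-fold with Tnrc6a in control cells (edgeR adjusted p = 8.14e-18). Of 14 matrix and endocytosis genes of the endoderm, 12 fell and 1 rose with Cas9, 11 fell and 1 rose with Tnrc6a, and 10 rose and 3 fell with Tnrc6a in control cells, where 30.4% of all genes tested rose. The exceptions, named after their values were seen, were Apoe, a lipid carrier that rose in Trim71-/- cells with either construct, and Lamc1, Nid1 and Apoe, which fell with Tnrc6a in control cells. Cubn, an endocytic receptor of visceral endoderm, went from 36.5 to 0.272 CPM in Trim71-/- cells with Tnrc6a (log2 -7.03, SE 0.30, edgeR adjusted p = 7.52e-10), further than any of the 8. The summed level of both lists was 2062 to 2161 CPM in Cas9 control, 1363 to 1378 in Cas9 Trim71-/-, 2776 to 2933 in Tnrc6a control and 1307 to 1387 in Tnrc6a Trim71-/- libraries, with Ttr and Afp not in the table. Its part in the falls and rises of the 8 genes was not tested.

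Family relatives and pathway genes listed for the 8 genes moved less uniformly. Their counts stand against 19.1% of all genes tested that fell and 17.1% that rose with Cas9, and 19% and 20% with Tnrc6a. Of 16 retinoid genes, 4 fell and 1 rose in Trim71-/- cells with Cas9, and 8 fell and 2 rose with Tnrc6a. Stra8, another gene that retinoic acid induces, fell by 2.07 on the log2 scale with Cas9 and by 1.61 with Tnrc6a (edgeR adjusted p = 8.37e-21 and 3.37e-20). Cyp26a1, which degrades retinoic acid, fell by 2.00 (edgeR adjusted p = 0.0180) and by 2.24 (edgeR adjusted p = 1.24e-05), at 0.273 CPM in Cas9 control cells. The first of these calls was lost without Cas9 control replicate 1 or without Cas9 Trim71-/- replicate 1 or 2 (edgeR adjusted p up to 0.109). Of 18 BMP pathway genes, 7 fell and 5 rose with Cas9, and 6 fell and 6 rose with Tnrc6a. Bmp2, a ligand of the kind Bmper binds, fell by 1.46 and by 1.65 (edgeR adjusted p = 0.000773 and 1.81e-06). Tll1, a protease that cleaves a BMP inhibitor and lies on chromosome 8, rose by log2 1.13 and 2.43 (edgeR adjusted p = 0.000553 and 8.27e-08). Of 5 other CAP genes, 0 rose with Cas9 and 2 rose with Tnrc6a, and Glipr2 was the 1 that fell, by 2.22 with Cas9 and by 2.30 with Tnrc6a (edgeR adjusted p = 1.23e-22 and 8.06e-26), and it rose by log2 0.77 with Tnrc6a in control cells.

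The remaining lists also moved in both directions. Of 16 proteoglycan core genes, 5 fell and 0 rose with Cas9, and 6 fell and 4 rose with Tnrc6a. Sdc4, a cell surface syndecan, fell by 0.74 with Cas9 and by 0.28 with Tnrc6a. Gpc6, a glypican, had a log2 difference of -0.49 with Cas9 (edgeR adjusted p = 0.494) and fell by 2.41 with Tnrc6a (edgeR adjusted p = 4.13e-05), or by 3.51 without Tnrc6a Trim71-/- replicate 3. Of 12 tensin and focal adhesion genes, 5 fell and 3 rose with Cas9, and 6 fell and 4 rose with Tnrc6a. Itgb1, an integrin gene on chromosome 8, rose by log2 0.72 with Cas9 and 0.73 with Tnrc6a (edgeR adjusted p = 1.46e-18 and 4.95e-19), opposite to Tns4. Zyx, a focal adhesion protein, fell by 0.50 and by 0.60 and rose by log2 1.37 with Tnrc6a in control cells. Of 9 genes listed with Nostrin (F-BAR relatives, dynamins, Wasl and Nos3), 5 fell and 2 rose with Cas9. With Tnrc6a, 4 fell and 1 rose. Nos3, the nitric oxide synthase that Nostrin binds, was higher in Trim71-/- cells with Cas9 (log2 0.61, SE 0.17, edgeR adjusted p = 0.00348). It was not called higher with Tnrc6a, where Fnbp1l was the 1 that rose. Of 15 other forkhead genes, 3 fell and 4 rose with Cas9, and 2 fell and 4 rose with Tnrc6a. Foxj1, the ciliogenesis factor, rose by log2 1.53 and 1.65, opposite to Foxq1, and Foxf2, described above, fell. Hk2, the inducible hexokinase, fell by 0.26 with Cas9 and had a log2 difference of -0.06 with Tnrc6a (edgeR adjusted p = 0.267), and it and Hk1 were the 2 other hexokinases tested.

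Markers of other cell types did not all follow the 8 genes. The summed level of 9 endothelial and blood markers found in the table was 22.4 to 25.3 CPM in Cas9 control, 18.1 to 20.8 in Cas9 Trim71-/-, 31.6 to 33.3 in Tnrc6a control and 30.5 to 33.3 in Tnrc6a Trim71-/- libraries. The sums of the last 2 groups overlapped, while Srgn and Nostrin, known from endothelium, were near 0 in the last. The sum mixes directions, as 2 of the 9 fell and 2 rose in Trim71-/- cells with either construct. Runx1 fell by 1.80 with Cas9 and by 1.96 with Tnrc6a, and Kdr by 1.09 and by 0.52. Vwf rose by log2 1.00 and 0.75. Tie1, Emcn and Ptprc were not in the table. The 7 trophoblast markers found summed to 34.9 to 36.7, 26.8 to 27.2, 142.3 to 164.7 and 71.2 to 72.3 CPM in the same order, with Elf5 not in the table. Their sum thus moved in the same directions as that of the 8 genes but by less in Trim71-/- cells. With Tnrc6a it stayed above the Cas9 control sum there, unlike the sum of the 8 genes. Singly, 4 fell and 3 did not pass in Trim71-/- cells with Cas9, and 7 fell with Tnrc6a. The 4 fibroblast markers summed to 14.7 to 19.2, 18.6 to 19.96, 26.0 to 28.6 and 27.2 to 30.4 CPM, with Col3a1 and Postn not in the table. The 11 stem cell markers summed to 6482 to 6547, 7271 to 7350, 3711 to 3753 and 5249 to 5339 CPM, a sum opposite in direction to the 8 genes. Singly they were mixed, with 7 that rose and 3 that fell in Trim71-/- cells with Cas9. With Tnrc6a, 8 rose and 3 fell. Lin28a fell by 0.69 with Cas9 and by 0.91 with Tnrc6a, and Dppa5a by 0.84 and by 0.78. The part of any of these markers in the values of the 8 genes was not tested. None of the 8 genes is on chromosome 8. In Trim71-/- cells its 664 genes past a cut on mean CPM had a median log2 difference of 0.49 with Cas9 and 0.52 with Tnrc6a.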

How the data were processed

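Per the submitters' processing notes, bcl2fastq 2.20 and STAR 2.7.3a were used with the builds GRCm38 and mm10. As deposited by the authors, the table gives an unnormalised count for each gene in each library, beside RPKM made from that count. The RPKM values are the counts divided by a deposited gene length and by 1 constant per library, which was 0.935 to 1.08 of its total. Which counter, gene annotation and strand option were used is not given in the sources used here. Libraries held 20758151 to 31552915 counts.

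The tests ran in edgeR 4.0.16 under R 4.3.3 (filterByExpr by group, trimmed mean of M values, robust quasi-likelihood fit with 1 mean per group over all 12 libraries, two-sided tests, Benjamini-Hochberg adjustment over 20486 genes, threshold 0.05). The fit was tested on simulated data. The members, lists and rules were chosen with earlier results of these data known. Tests of the 8 genes between Tnrc6a and Cas9 had been planned, but those libraries also served their choice, so these differences are given with no p-value. The text names the 8 members, the 6 genes most alike to them, the nearest neighbours within 200 kb, and up to 4 genes per list. Intervals of percentages are exact binomial intervals of the summed counts (95%), and those of log2 values use the standard error with 8 residual degrees of freedom. Coordinates are from GENCODE M21 (GRCm38). Alternatives were limma 3.58.1, DESeq2 1.42.0, other scaling, other filters, a replicate block, a fit of only the groups compared, and leaving out each library. No 2 libraries of a group held the same values, and chi-square per degree of freedom between them was 2.48 to 7.46.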

Additional observations from a re-analysis of the deposited data

How the results depend on the processing

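Under each alternative that gave a value, the 8 genes stood higher with Tnrc6a than with Cas9 in control cells, and 3 of them were kept by a filter of at least 1 CPM in 6 libraries. In Trim71-/- cells a fit of only the groups compared gave a value for 1 gene. Nostrin reversed there without Cas9 Trim71-/- replicate 3, and its log2 difference ran from -1.13 to 0.22 as each library was left out. Leaving out 1 library at a time, the genes called ranged from 12094 to 12430 for Tnrc6a in control cells, 12098 to 12348 for Tnrc6a in Trim71-/- cells, 6417 to 7000 for Trim71-/- with Cas9 and 6955 to 7110 for Trim71-/- with Tnrc6a. With the replicate number as a block the counts were 12901, 12789, 7266 and 7851, against 13007, 12884, 7403 and 8005 without it. Deviations of same-numbered libraries correlated weakly at most (-0.115 to 0.152). Some same-numbered libraries were still each other's closest match, as replicates 1 and 3 of Tnrc6a control and Cas9 control (0.152 and 0.136). Few counts lie behind the Trim71-/- values: 7 of the 8 genes had 15 counts or fewer over the 3 Cas9 Trim71-/- libraries.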
